A study of Mus musculus with 8 samples.

Results

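The Cdx family genes of the mouse, Cdx1, Cdx2 and Cdx4, were examined in the posterior part of embryos that lack Cdx2 and of wild type embryos. The members were all non-control probes that carry one of these gene names on a 2-colour Agilent whole mouse genome array. This gave 3 probes for 3 genes, 1 probe for each, among 41174 non-control probes. All 3 belonged to the 15503 genes with a probe bright enough to be tested. Cdx2 null mutants and wild type embryos, both of the strain C57Bl6J/CBA, were collected at the 7/8 somite and the 4/5 somite stage. The tissue ran from behind the last somite to the base of the allantois, and 20 embryos of each genotype and stage were pooled, so the series had 4 RNA pools. The null and the wild type pool of a stage shared 4 arrays, on 2 of which the null pool carried Cy3 and on 2 Cy5. A slide held an array pair of each stage. The sources used here do not say how the null allele was made.

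Cdx proteins are homeodomain transcription factors related to caudal of Drosophila. In the caudal end of the vertebrate embryo they promote the expression of trunk Hox genes and keep the axis growing. Cdx2 belongs to the ParaHox cluster, is also needed in the trophectoderm and later in the intestinal epithelium, and acts in part redundantly with its paralogues Cdx1 and Cdx4. Wnt, FGF and retinoic acid signals are known to switch on Cdx genes.

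The promoters of the members with lower signal in the null pools at both stages are shown first, since both genes fell. They are the 250 bases before the transcription start in RefSeq (GRCm38.p6), and 2 of the 3 members had an entry. Cdx2 lies on the minus strand (chr5:147307250-147307499) and Cdx4 on the plus strand (chrX:103321148-103321397). Capitals mark the octamer ATGCAAAT and the CCAAT box, on either strand.
Cdx2: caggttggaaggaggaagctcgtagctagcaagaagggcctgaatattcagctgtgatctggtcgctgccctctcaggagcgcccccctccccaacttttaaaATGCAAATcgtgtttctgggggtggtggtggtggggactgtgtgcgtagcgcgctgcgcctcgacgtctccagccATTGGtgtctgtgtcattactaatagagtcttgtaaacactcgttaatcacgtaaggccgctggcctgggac
Cdx4: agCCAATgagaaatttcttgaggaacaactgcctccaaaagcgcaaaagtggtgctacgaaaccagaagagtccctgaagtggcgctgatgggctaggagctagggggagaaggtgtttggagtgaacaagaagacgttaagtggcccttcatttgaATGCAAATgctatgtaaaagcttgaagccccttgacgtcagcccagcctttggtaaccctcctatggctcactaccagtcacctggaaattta
Both windows held 1 octamer on the strand of the gene, 147 to 140 bases before the start in Cdx2 and 93 to 86 bases before it in Cdx4. The octamer, in either orientation, occurred in 1.6% of 32851 promoter windows of this length, and it was searched after the sequences had been read. Each window also held 1 CCAAT box, which 33.8% of the windows have. The core of the Cdx binding motif, TTTAT, and the core of the LEF/TCF motif that mediates Wnt signalling, CTTTGA, had no match on either strand in these 2 windows. They occurred in 37.3% and 13.8% of all windows. Only these exact letters were searched, so other forms of the 2 motifs were not looked for. The matches do not overlap one another and describe the letters only.

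The share of probes well above background was 46.6% to 59% per channel. As a description across genes, array pairs that shared stage and dyes had ratios with r of 0.869 to 0.925, against 0.488 to 0.57 for pairs of a stage with swapped dyes. Pairs of different stages had r of 0.512 to 0.632 with the same dyes and 0.284 to 0.368 with swapped dyes. Genes known from axial progenitors (7 of 7) and from presomitic mesoderm (6 of 6) passed the filter on dim probes. This filter kept 21922 of 41174 probes. All genes listed for hindgut endoderm (7 of 7) and visceral endoderm (6 of 6) passed too. So did those of blood and endothelium (6 of 6) and surface ectoderm (5 of 5). The trophoblast (7 of 8), somite (5 of 6), allantois (4 of 5) and neural (3 of 5) lists passed in part. The counts therefore do not single out the posterior tissue. All 3 Cdx probes were well above background in each of their 16 channels, none of their spots was marked as an outlier or saturated, and the lowest signal was 5.22 times its local background, for Cdx1. In whole tissue, fewer cells that express a gene and less RNA per cell cannot be told apart. Standard deviations within a stage come from 4 arrays that measured the same pools, and are technical.

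Cdx2, the mutated gene, is needed for posterior axis elongation. Its probe lies on chromosome 5 at 148112547 to 148112606 (mm9, as in the files), and no source used here says whether the null allele keeps this stretch. The probe therefore does not check the genotype labels. At 7/8 somites, the log2 ratios of null over wild type were -1.52, -1.56, -1.49 and -1.61 on arrays 1 to 4. At 4/5 somites they were -1.34, -1.10, -1.33 and -1.15. Every array gave a lower Cdx2 signal in the null pool, and the arrays of the stages did not overlap. A mean at least 2-fold lower in the null pool, with 1 sign on all 4 arrays, occurred in 0.252% of genes at 7/8 somites and in 0.168% at 4/5 somites. The null pool had 34.2% of the wild type signal at 7/8 somites and 42.6% at 4/5 somites, so a signal was left on this probe at both stages. Over both stages the log2 ratio was -1.39 (SE 0.09, n = 2 stages, limma adjusted p = 5.02e-09), a 2.62-fold fall. Of 15503 genes, 8 had a lower mean ratio. At 7/8 somites 6 genes ranked below Cdx2 and at 4/5 somites 12 did.

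Cdx4, the X-linked paralogue, fell too. Its probe is on the X chromosome at 100525314 to 100525373 (mm9). At 7/8 somites the log2 ratios of null over wild type were -0.59, -0.46, -0.61 and -0.53, and at 4/5 somites they were -1.09, -0.66, -1.15 and -0.85. The null pool was lower on all 8 arrays, as for Cdx2 and for 8.43% of genes, and closer to wild type at 7/8 somites, with no overlap between the arrays of the stages. It had 68.4% of the wild type signal at 7/8 somites and 52.1% at 4/5 somites. The log2 ratio over both stages was -0.74 (SE 0.10, n = 2 stages, limma adjusted p = 1.74e-05), a 1.67-fold fall, and 63 genes had a lower value. At 4/5 somites the size moved with the dyes, with a mean of -1.12 with Cy3 on the null pool and -0.76 with Cy5.

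Cdx1, the paralogue that responds to Wnt and retinoic acid signals, had ratios of opposite sign at the 2 stages. Its probe is on chromosome 18 at 61180063 to 61180122 (mm9). At 7/8 somites the log2 ratios of null over wild type were 0.39, 0.45, 0.37 and 0.41, whereas at 4/5 somites they were -0.27, -0.33, -0.42 and -0.41. The null pool was thus higher on all 4 arrays of the later stage, with 132.3% of the wild type signal, and lower on all 4 arrays of the earlier one, with 78.1%. The mean over both stages was 0.024 (SE 0.12, n = 2 stages) and did not pass the test (limma adjusted p = 0.954). Such a change of sign over all 8 arrays, in this direction, occurred in 2.1% of genes, and the opposite one in 1.75%. Ratios of the stages that do not overlap, as in all 3 Cdx genes, occurred in 18.5%. Stage means that differ by at least the 0.76 of Cdx1, with no overlap of arrays, occurred in 0.335% of genes (52 of 15503). The difference between stages has no test, since each stage had 1 pool per genotype.

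**Figure D1:**
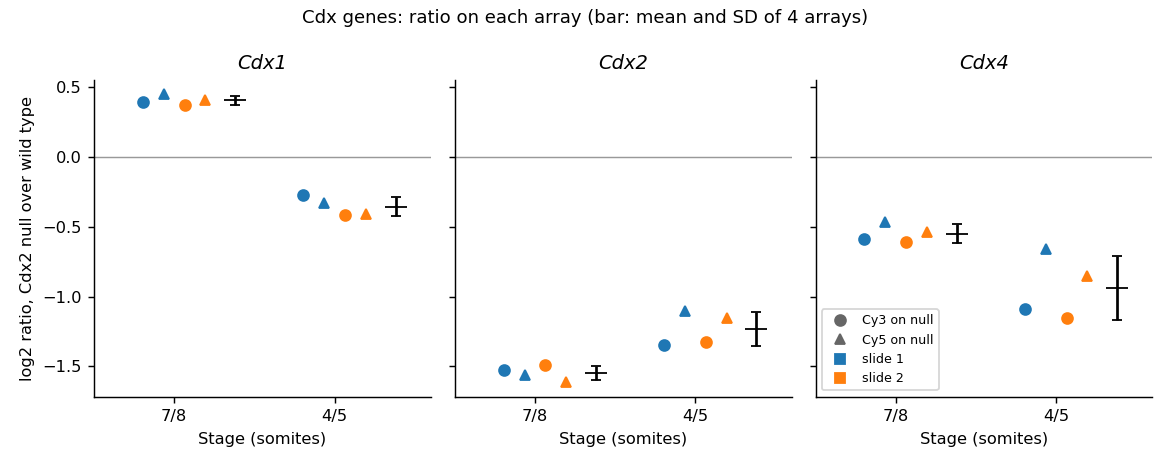
log2 ratio of Cdx2 null over wild type on each array for the 3 Cdx genes, at 7/8 and 4/5 somites. Circles mark arrays with Cy3 and triangles with Cy5 on the null pool, colours mark the slides, and black bars are the mean and SD of 4 arrays. Cdx2 and Cdx4 lie below 0 on all 8 arrays, and Cdx1 lies above 0 on the 4 arrays of 7/8 somites and below 0 on the 4 of 4/5 somites.

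In this comparison 2 of the 3 Cdx genes fell and none rose, against 4.32% of all tested genes that fell and 6.39% that rose. The 2 were Cdx2, which is the mutated gene itself, and its paralogue Cdx4. Either call applied to 10.7% of genes. With each array centred on its median in place of loess, 79.7% of the calls were rises, against 59.7% here. The calls of Cdx2 and Cdx4 held in all 22 alternative settings, with ratios of -1.43 to -1.29 and of -0.86 to -0.63. The test called 1661 genes. Leaving out an array of 7/8 somites gave 784 calls for array 2 and 945 for array 4, and leaving out array 2 of 4/5 somites gave 914. Both slides gave the same signs. On slide 1 the log2 ratios at 7/8 and 4/5 somites were 0.42 and -0.30 for Cdx1, -1.54 and -1.22 for Cdx2, and -0.53 and -0.87 for Cdx4. On slide 2 they were 0.39 and -0.41, -1.55 and -1.24, and -0.57 and -1.004.

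The channel of each genotype gave the level of each gene in each pool, on a log2 scale whose values compare pools but not genes. Cdx1 had levels of 9.38, 9.44, 9.24 and 9.31 in null and of 8.99, 8.99, 8.87 and 8.90 in wild type embryos at 7/8 somites. At 4/5 somites its levels were 9.64, 9.64, 9.69 and 9.74 in null and 9.91, 9.97, 10.10 and 10.14 in wild type embryos. From the lowest, the order of the pools was wild type at 7/8, null at 7/8, null at 4/5 and wild type at 4/5 somites, and no neighbours overlapped. In wild type embryos the level at 7/8 somites was 46.8% of that at 4/5 somites, a 2.14-fold difference (-1.10 on the log2 scale). In null embryos it was 79.2% (-0.34). For Cdx1, 28 of 15503 genes had a lower log2 difference between stages in wild type and 666 in null embryos. A level at least 2-fold lower at 7/8 somites, with no overlap of arrays, occurred in 0.161% of genes in wild type embryos (25 genes). The difference between stages was thus larger in wild type than in null embryos, which has no test.

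Cdx2 had levels of 9.89, 9.94, 9.81 and 9.74 in null and of 11.41, 11.51, 11.30 and 11.36 in wild type embryos at 7/8 somites. At 4/5 somites they were 10.18, 10.39, 10.33 and 10.24 in null and 11.52, 11.49, 11.66 and 11.39 in wild type embryos. The wild type arrays of the stages overlapped, while those of the null did not. From the lowest, the order was null at 7/8, null at 4/5, wild type at 7/8 and wild type at 4/5 somites. The level at 7/8 somites was 73.9% of that at 4/5 somites in null and 92% in wild type embryos. With the scanner's processed signals the wild type difference had the opposite sign (0.024 against -0.12 on the log2 scale).

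Cdx4 had levels of 9.75, 9.89, 9.71 and 9.66 in null and of 10.34, 10.35, 10.32 and 10.19 in wild type embryos at 7/8 somites. At 4/5 somites they were 9.17, 9.34, 9.07 and 9.10 in null and 10.26, 9.99, 10.22 and 9.96 in wild type embryos. From the lowest, the order was null at 4/5, null at 7/8, wild type at 4/5 and wild type at 7/8 somites. Only the wild type pools, next to each other in this order, overlapped. The level at 7/8 somites was 149.7% of that at 4/5 somites in null and 114.2% in wild type embryos. For Cdx4, 153 genes had a higher log2 difference between stages in null embryos. Among all genes, the arrays of the stages did not overlap for 20.8% in null and for 19.4% in wild type embryos.

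**Figure D2:**
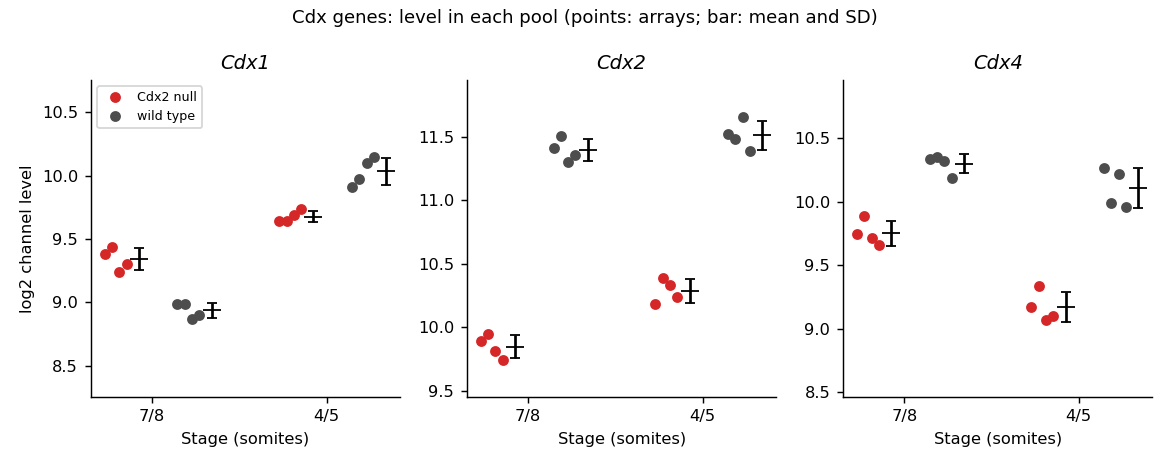
log2 channel level of the 3 Cdx genes on each array, for null (red, left) and wild type (grey, right) at 7/8 and 4/5 somites. Black bars are the mean and SD of 4 arrays, and each panel spans the same log2 range. Wild type Cdx1 lies at 8.87 to 8.99 at 7/8 and at 9.91 to 10.14 at 4/5 somites, while wild type Cdx2 and Cdx4 overlap between stages.

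The stages were also compared over both genotypes, with the 4 pools fitted by genotype and stage. Cdx1 was lower at 7/8 somites, with a log2 difference of -0.72 (SE 0.12, limma adjusted p = 0.000446), which is 1.64-fold. Cdx4 was higher, with a log2 difference of 0.39 (SE 0.10, limma adjusted p = 0.0116), which is 1.31-fold. Cdx2 had a log2 difference of -0.28 (SE 0.09) that did not pass (limma adjusted p = 0.0565). Thus 1 member fell and 1 rose, against 4.82% of all genes that fell, 6.01% that rose and 10.8% called in all. The call of Cdx4 was lost in 9 of 22 alternative settings. Its adjusted p was 0.0951 without array 2 and 0.061 without array 4 of 4/5 somites, and 0.104 without array 2 and 0.0646 without array 4 of 7/8 somites. The call of Cdx1 was lost in 3, with adjusted p of 0.0716 with median centring, 0.108 with no filter and 0.133 with no background correction. Cdx2 passed in 3 of 22, among them without array 1 of 4/5 somites (adjusted p = 0.0428). The stage test called 1679 genes. Leaving out an array of 7/8 somites gave 666 calls for array 4 and 715 for array 2, and leaving out one of 4/5 somites gave 904 for array 2 and 1099 for array 3.

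The genes nearest to each Cdx gene in their levels over the 4 pools, centred per gene, differed by member. The root mean square difference over the 4 pools, on the log2 scale, was the measure of likeness. Among the Cdx genes themselves it was 0.50 for Cdx2 and Cdx4, 0.68 for Cdx1 and Cdx4 and 0.79 for Cdx1 and Cdx2. For Cdx4 the nearest was Ccno, which encodes cyclin O, at 0.054. It was followed by Cyp26a1, which encodes an enzyme that breaks down retinoic acid, at 0.076. Smtnl2 (0.092), the Wnt ligand gene Wnt5b (0.092) and S1pr3 (0.11), which encodes a receptor of sphingosine-1-phosphate, came next. Their log2 ratios over both stages lay between -0.82 for Cyp26a1 and -0.65 for Ccno, near that of Cdx4, as the choice by likeness in the same pools requires.

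For Cdx2 the nearest was the splicing factor gene Prpf19, at 0.087. Its log2 ratio varied over the arrays of 4/5 somites with an SD of 0.78, against 0.12 for Cdx2 there. The gene of the hormone secretin, Sct, followed at 0.16, and then Stra6l (0.21), Rgn (0.21) and the small GTPase gene Rab32 (0.22). The log2 ratios of these 5 lay between -1.31 for Rgn and -1.05 for Stra6l, which the choice by likeness fixes in the same way. For Cdx1 the nearest were Cap1 (0.093), which encodes an actin-binding protein, 1700007K13Rik (0.094), Cbr1 (0.11), which encodes a carbonyl reductase, 4632415L05Rik (0.12) and Rtl8c (0.12). None passed the test of null over wild type, as for Cdx1, which they were chosen to resemble. The stage values of Cap1 turned on 1 array. Its log2 difference between stages over both genotypes was -0.62, and 0.29 without array 4 of 7/8 somites. Cbr1 had log2 ratios of null over wild type of 0.36 ± 0.07 at 7/8 and -0.10 ± 0.05 at 4/5 somites (SD of 4 arrays), and its wild type level was lower by 0.83 at the later stage.

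**Figure D3:**
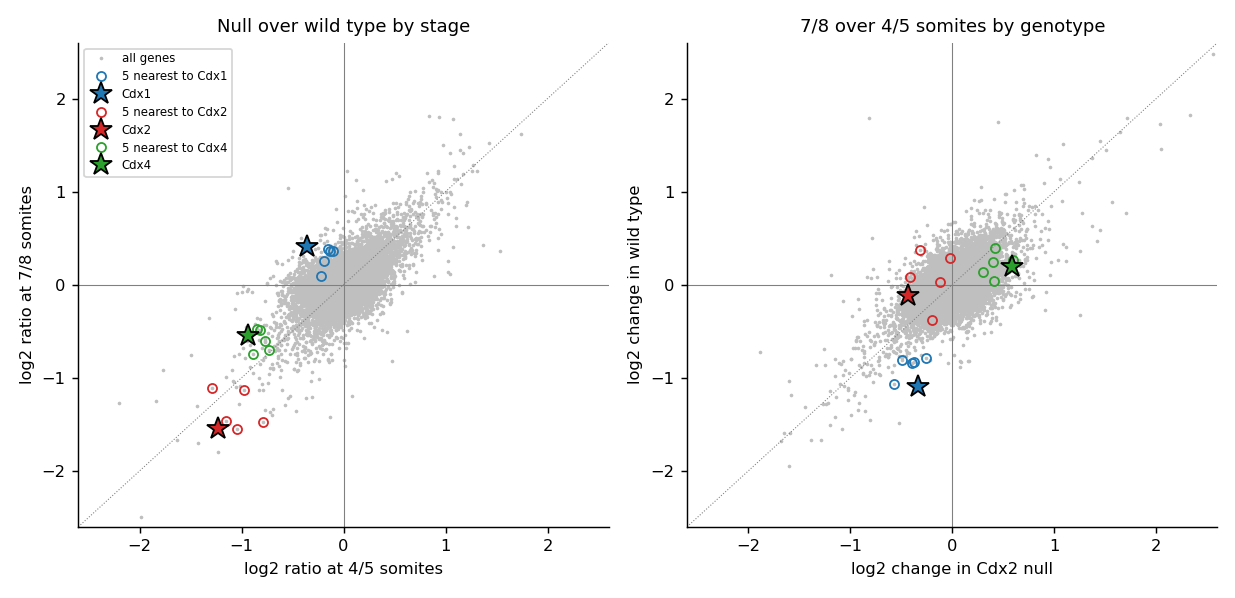
Stars are the Cdx genes, rings the 5 genes nearest to each in level over the 4 pools, and dots all 15503 genes. Left, log2 ratio of null over wild type at 4/5 (x) and 7/8 somites (y). Right, log2 difference of 7/8 over 4/5 somites in null (x) and wild type (y). Over both panels 3 genes lie outside the axes. Cdx2 and Cdx4 lie below 0 on both axes of the left panel, and Cdx1 lies below the dotted line of equal change in the right one (-1.10 in wild type against -0.34 in null).

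Signals known to act on Cdx genes changed in part. Of 16 listed genes 14 were measured, and 2 rose and 3 fell in the null pools, with a median log2 ratio of 0.031 against -0.0057 over all genes, of which 6.39% rose and 4.32% fell. Aldh1a2, which encodes an enzyme that makes retinoic acid, rose by 1.06 (SE 0.09, limma adjusted p = 1.01e-07) and the retinoic acid receptor gene Rarb by 0.77 (SE 0.09). Wnt5b fell by 0.66 (SE 0.09), Bmp4, which encodes a bone morphogenetic protein, fell by 0.49 (SE 0.09), and the receptor gene Rarg fell by 0.35 (SE 0.08). The call of Rarg was lost in 6 of 22 alternative settings, and its 2 other probes read -0.20 to 0.014 over the stages. Over both genotypes 3 of the 14 were lower at 7/8 somites, Aldh1a2 (-1.53), the Wnt ligand gene Wnt8a (-1.32) and Rarb (-0.30, a call lost in 14 of 22 settings). The FGF ligand genes Fgf17 (0.49, lost in 6) and Fgf8 (0.37, lost in 15) rose. Rarg, Wnt8a, Fgf17 and Fgf8 were named after their values were seen. Wnt3a, which encodes a Wnt ligand known to activate Cdx1 and is named here after its values were seen, passed neither test. Its log2 ratio of null over wild type was 0.34 ± 0.05 at 7/8 and -0.08 ± 0.06 at 4/5 somites (SD of 4 arrays). Its log2 difference between stages was -0.07 in null and -0.49 in wild type embryos. Of the other Wnt ligand genes listed, Wnt8a had log2 ratios of 0.30 at 7/8 and -0.17 at 4/5 somites. Those of Wnt5b were -0.47 and -0.85, and those of Wnt5a, also named after its values were seen, -0.14 and -0.18. The part of these ligands in the Cdx1 values was not tested.

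Among genes that Cdx proteins are known to regulate, more fell than rose. Of 14 measured trunk Hox genes of groups 5 to 9, which give the trunk its regional identity, 9 fell and 2 rose (median log2 ratio -0.42), against 4.32% of all genes that fell and 6.39% that rose. The log2 ratio was -1.74 for Hoxa7 and -1.55 for Hoxc9, the lowest of the 14. The rises were Hoxa5 (0.75) and Hoxb5 (0.28, a call lost in 20 of 22 settings). At 7/8 against 4/5 somites, over both genotypes, 7 of the 14 rose and 3 fell, against 6.01% and 4.82% of all genes. Hoxc9 had log2 differences between stages of 2.05 in null and 1.46 in wild type embryos, and Hoxa7 of 1.71 and 0.78, and in both, as in Cdx4, the value of the null pools was the larger one. Of 7 other known targets 3 fell and none rose. Cyp26a1 fell by 0.82 (SE 0.09), Ptk7, which encodes a receptor of planar cell polarity, fell by 0.69 (SE 0.08), and T, the gene of brachyury, had a log2 ratio of -0.34 that passed here but in only 3 of 22 alternative settings. Dll1, Fgf8, Rspo3 and Wnt3a, the rest of that list and named after their values were seen, did not pass.

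Of 18 measured neighbours on the chromosomes, 3 on each side of each Cdx gene, none next to Cdx1 or Cdx2 passed as lower. Next to Cdx1, Pdgfrb (0.60) and Camk2a (0.39) rose, and the other 4 did not pass. Next to Cdx2, Pan3 (0.44) and Flt1 (0.33, a call lost in 8 of 22 settings) rose, and its ParaHox neighbour Gsx1 had a log2 ratio of -0.08 (limma adjusted p = 0.677). Next to Cdx4, Cited1 fell by 0.59, Xist by 0.54 and Chic1 by 0.27, although Chic1 lost its call in 17 of 22 settings. Xist is expressed from the inactive X chromosome of females, and its 3 other probes read -0.51 to -0.038 over the stages. The Y-linked gene Eif2s3y rose by 0.37 (a call lost in 11 of 22 settings), while Kdm5d (0.23) and Ddx3y (0.03) did not pass. Over 432 X-linked genes the median log2 ratio was 0.012, and 5.09% of them fell, against 4.32% of 12569 autosomal genes. The part of the pools' sex in the Cdx4 ratio was not tested.

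Markers of other tissues moved beside the Cdx genes, and their part in the Cdx ratios was not tested. Of all tested genes 4.32% fell and 6.39% rose, with a median log2 ratio of -0.0057, and the counts below stand beside these. Of 6 visceral endoderm genes 4 rose (median log2 ratio 0.64), among them Cubn by 1.18, Amn by 0.97 and Apoe by 0.96, in 22 of 22 settings. The call of the other, Apoa1, was lost in 14 of 22 settings. At 7/8 against 4/5 somites, over both genotypes, all 6 fell, against 4.82% of all genes. Afp is one of the 6 and named after its values were seen. Its log2 difference between stages was -1.19 in null and 0.11 in wild type embryos. That of Cdx1 was -0.34 in null and -1.10 in wild type embryos. In Cubn the fall was larger in wild type (-1.15) than in null embryos (-0.96), as in Cdx1. So it was in Amn (-0.97 against -0.71) and Apoe (-0.73 against -0.55). It was smaller in wild type embryos in Apoa1 (-0.68 against -0.97) and in Ttr (-0.25 against -0.48), also named after its values were seen. The log2 ratio of Afp was -0.82 at 7/8 and 0.48 at 4/5 somites. Of 5 somite genes 3 rose (median 0.49), led by Meox1 with 0.92, while the calls of Tcf15 and Foxc2 were lost in 9 and 11 of 22 settings. The median of the somite list was 0.090 at 7/8 and 0.89 at 4/5 somites. Of 7 genes listed for hindgut endoderm, where Cdx2 is expressed, Krt19 fell by 1.37 and Shh by 0.60, while Sox17 rose by 0.58 and Epcam by 0.41 (median 0.0025). Of 7 trophoblast genes 3 rose and 1 fell (median 0.27), and of 5 surface ectoderm genes 3 rose (median 0.34). Among the trophoblast calls, Gata3 was lost in 11 and Plac1 in 9 of 22 settings. Of 6 genes of blood and endothelium 3 fell (median -0.26), of 6 presomitic genes 2 fell (median -0.20) and of 7 axial progenitor genes 2 fell (median -0.16). Of these calls, Tal1 was lost in 16, Hbb-bh1 in 7, Dll3 in 10 and T in 19 of 22 settings. The 2 axial progenitor genes that fell were Cyp26a1 and T, which were already counted among the other known Cdx targets. Fgf8 and Wnt3a are also in both lists. For the axial progenitor list, the median ratio was 0.11 at 7/8 and -0.45 at 4/5 somites.

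**Figure D4:**
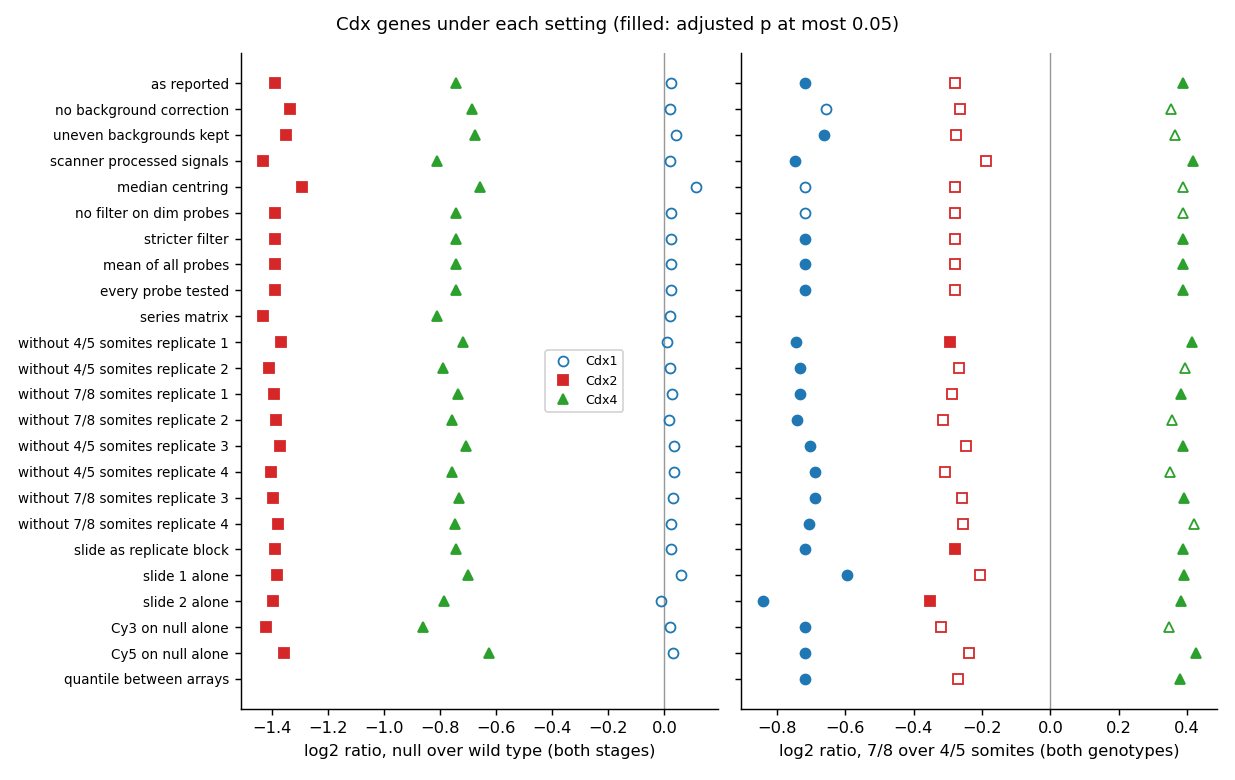
log2 ratio of the 3 Cdx genes under each processing setting, for null over wild type (left) and for 7/8 over 4/5 somites (right). Filled symbols have a limma adjusted p of at most 0.05. The series matrix has ratios only and quantile scaling was run for stages only, so each panel lacks 1 of these rows. Cdx2 and Cdx4 are filled in every row plotted in the left panel, Cdx1 stays within 0.12 of 0 there, and Cdx4 loses its fill in 9 rows of the right panel.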

How the data were processed

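Messenger RNA of 4 pools was measured on 8 Agilent arrays. Per the labels, 300 ng of RNA was amplified and labelled. The deposited scanner files give spot and background intensity as scanned, and processed intensity that was, per the file headers, detrended, corrected for background and for dyes by the scanner software. Values of the deposited matrix are log10 of null over wild type and equal the scanner's log ratio, turned to null over wild type on each array, at all 45018 spots of each array (tolerance 1e-05), with column medians of 0. Agilent Feature Extraction has version 9.5.3 in the submitters' processing notes and 10.5.1.1 in the file headers.

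Mean signals were corrected with normexp (offset 50) and loess in limma 3.58.1 (R 4.3.3), with control spots at weight 0. Uneven local backgrounds (58 spots on array 1 of 4/5 somites, 109 on the others) were set to the array's median. Outlier spots (1184) were left out. Channel levels came after Aquantile scaling. Of 41174 probes 21922 were kept, those with 1 genotype well above background on 3 or more of a stage's 4 arrays, and the brightest stood for each gene. The offset pulls ratios of dim probes towards 0. Accessions named 25097 probes through RefSeq (GRCm38.p6).

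Null over wild type was tested in limma on the 2 stage means of each gene, and stage on 4 pool values by genotype and stage, with Benjamini-Hochberg adjustment over 15503 genes and a threshold of 0.05, two-sided. Each test has 1 residual degree of freedom, the genotype by stage term, and a prior of 18.37, so the shared prior dominates the p-values. With 1 pool per genotype and stage, they do not measure the spread between replicate pools. Both tests were also run on simulated data, whose outcome is not reported here. Those data held no genotype by stage effect other than random noise, so they do not check the p-values of genes with such an effect. Members and gene lists were chosen with earlier results of these data known. Named genes are the 3 members, the 5 nearest in pattern to each, up to 3 measured neighbours per side, and up to 4 called members of each list with the largest ratio, with all members of the ParaHox and sex lists; others are said to be named after their values were seen, and some genes that meet the rule are not reported here. The 22 alternatives changed background correction, normalization, filter, probe choice, slide, dye order or left out 1 array.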

Additional observations from a re-analysis of the deposited data

Results flagged for a closer look

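The log2 ratio of Cdx1 was positive on all 4 arrays of 7/8 somites and negative on all 4 of 4/5 somites, with stage means 0.76 apart, a difference that was not tested. In the same way, the ratio of Cbr1 lay on opposite sides of 0 at the 2 stages, with means 0.456 apart, also not tested. Among 74 named genes looked at, these 2 were flagged. Afp and Fgf17, named after their values were seen, also had opposite signs on all 4 arrays of each stage. The log2 ratio of Afp was -0.82 at 7/8 and 0.48 at 4/5 somites, and that of Fgf17 was 0.20 and -0.25. Of all genes, 2.1% changed sign over all arrays in the direction of Cdx1 and 1.75% in the other. In 18 sets of 4 arrays (ratio, null level and wild type level of each Cdx gene at each stage), no array stood apart from the other 3.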

How the results depend on the processing

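The falls of Cdx2 and Cdx4 in the null pools kept direction and call in all 22 alternatives, and Cdx1 passed in none, with its ratio at -0.012 within slide 2 alone. Without 1 array in turn, the ratios were -1.41 to -1.37 for Cdx2, -0.79 to -0.71 for Cdx4 and 0.0098 to 0.034 for Cdx1. The signs of the 3 genes at each stage held throughout. Over both stages 1661 genes were called, 784 to 1589 without 1 array in turn, 497 with no background correction, 970 with uneven backgrounds kept, 1102 with median centring, 743 with no filter and 2555 with slide as a replicate block on the 4 dye swap pairs, where only technical spread is left. The arrays of slide 1 are titled bio1 and those of slide 2 tech1. The differences of the ratio between slides at the 2 stages correlated at r = -0.0037 across genes. The ratios thus showed no slide effect shared by the stages across genes, and channel levels were not compared in this way. For stages over both genotypes, 1679 genes were called, 666 to 1619 without 1 array in turn, 304 with no background correction, 747 with uneven backgrounds kept, 563 with median centring, 570 with no filter, 761 with Cy3 on the null pool alone and 4591 with the replicate block. The stage difference of Cdx1 was -0.66 with no background correction and -0.72 with median centring or no filter, where it lost its call, and -0.74 to -0.69 without 1 array in turn. That of Cdx4 lost its call at 0.35 with no background correction, 0.36 with uneven backgrounds kept, 0.39 with median centring or no filter and 0.35 with Cy3 on the null pool alone, and was 0.35 to 0.42 without 1 array in turn. That of Cdx2 passed at -0.28 with the replicate block and -0.35 within slide 2, and was -0.31 to -0.25 without 1 array in turn. Its wild type difference was 0.024 with the scanner's processed signals. The stage difference of Cap1 was -0.95 to 0.29 without 1 array in turn, the highest without array 4 of 7/8 somites, 0.21 within slide 1 and 0.37 with Cy3 on the null pool alone. The cause was not tested. Each gene rests on 1 probe and each pool is a single one.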

Other observations

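Intestinal genes that are known to depend on Cdx2 in the adult gut were measured for 6 of 10. Vil1, which encodes the brush border protein villin, rose by 0.86 (SE 0.09, limma adjusted p = 1.04e-06), with 0.76 to 0.95 on 2 probes at the 2 stages. Isx, an intestinal homeobox gene, was called lower (lost in 14 of 21 settings), but it was well above background in 0 of 8 null and 4 of 8 wild type channels, and no fold is given. Lct, Sis and Hnf4a, named after their values were seen, did not pass. Among ParaHox genes outside the Cdx family, only Gsx1 of 3 passed the filter on dim probes.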
